A study of Mus musculus with 56 samples.

Results

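The expression of 10 immediate early genes (Fos, Fosb, Jun, Junb, Egr1, Ier2, Atf3, Dusp1, Klf2 and Btg2) was followed in mouse kidney over 24 h under inverted feeding. The genes were taken by name as 10 of the 17027 rows of the kidney expression table. Kidneys came from 56 female C57BL/6J mice of 9 weeks of age, kept in a 12 h light and 12 h dark cycle. After a week of free access to chow, the mice had food only in the daytime (daytime-restricted feeding, DRF) or only at night (nighttime-restricted feeding, NRF) for 7 days. Poly(A) RNA was sequenced from 4 mice in each regimen at zeitgeber times (ZT, counted in hours from the moment lights went on) 0, 4, 8, 12, 16, 20 and 24, which gave 14 groups. All mice were wild type and each library was bulk kidney tissue, in which fewer cells of a type and less RNA per cell cannot be told apart.

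Immediate early genes are the genes that a cell transcribes within minutes of a stimulus, without first having to make protein. Growth factors, calcium, stress and mechanical load reach them through MAP kinases and calcium signalling, which act on factors already bound at the promoter, such as the serum response factor with its Elk partners and CREB. Their RNAs are short-lived, so a level in frozen tissue reflects the time just before collection. FOS, FOSB, JUN and JUNB are subunits of the AP-1 transcription factor, EGR1 is a zinc finger transcription factor, IER2 is a nuclear regulator, ATF3 is a stress-induced factor of the ATF/CREB family and KLF2 is a Krüppel-like factor known from endothelium under flow. DUSP1 is a phosphatase that switches MAP kinases off, and BTG2 restrains proliferation.

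The levels are given in TPM (transcript abundance scaled to the same total over the recovered genes in every sample). They were rebuilt from the deposited values as read numbers per transcript length, so levels can be set side by side between genes. Dusp1 had the highest level over all 56 samples with 45.9 ± 16.6 TPM (SD), and Klf2 followed with 43.4 ± 8.22 TPM. Dusp1 lay above Klf2 in 33 of 56 samples, so this pair overlapped widely. Btg2 had 36.8 ± 6.20 TPM and Jun 34.6 ± 7.76 TPM, with Btg2 above Jun in 38 samples. Ier2 had 23.1 ± 5.38 TPM and Junb 21.1 ± 5.02 TPM, with Ier2 above Junb in 42 samples. The other 4 had lower means. Egr1 had 9.61 ± 5.87 TPM, Atf3 3.38 ± 1.15 TPM, Fos 2.09 ± 1.28 TPM and Fosb 0.234 TPM. Atf3 was above Fos in 43 samples. Fos rested on 7 to 104 reads a library, Atf3 on 18 to 90, Egr1 on 99 to 948 and Fosb on 0 to 36, whereas Jun, Dusp1 and Btg2 had at least 406 reads everywhere. With a mean under 1 TPM, Fosb stayed outside the set of 12390 genes tested, so 9 of the 10 genes entered the tests.

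**Figure D1:**
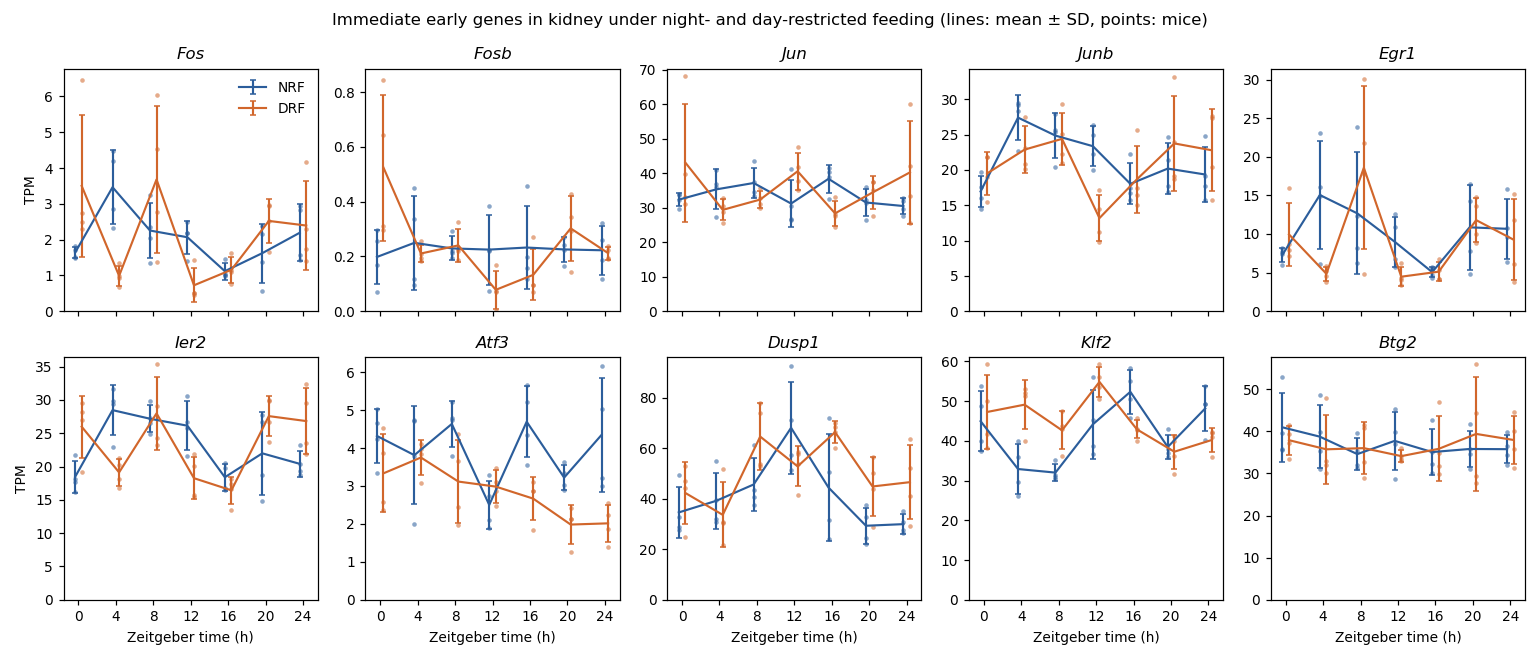
TPM (y axis, each panel on its own scale from 0) of the 10 immediate early genes against zeitgeber time in hours (x axis), with lines for the mean ± SD of 4 mice, points for single mice, and NRF in blue and DRF in orange. Under DRF, Fos, Egr1 and Ier2 were low at ZT4 and ZT12 and high at ZT8, whereas under NRF their highest means stood at ZT4, and Btg2 stayed between 34.1 and 41.0 TPM in all groups.

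On GRCm38, Fos lies on chromosome 12 (85473890 to 85477274, plus strand), Fosb on chromosome 7 (19302696 to 19310118, minus strand), Jun on chromosome 4 (95049036 to 95052222, minus strand) and Dusp1 on chromosome 17 (26505591 to 26508472, minus strand). Chromosome 8 holds 3 of the genes, Junb (84976909 to 84978748, minus strand), Ier2 (84661331 to 84662852, minus strand) and Klf2 (72319062 to 72321654, plus strand). Atf3 (191170296 to 191183333) and Btg2 (134074865 to 134079155) share the minus strand of chromosome 1. In GENCODE M21, exons of Jun overlap the antisense gene Junos, exons of Junb overlap Prdx2 and exons of the longest Dusp1 model overlap Ergic1, each on the opposite strand. The library kit was not described as marking strand, so reads from these partners cannot be told apart from the 3 genes. For Dusp1 the values gave whole reads at a length of 2697 bases and not at the 3311 bases of the annotated exon union, so its TPM rests on that length.

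RefSeq promoters of build GRCm38.p6 were at hand for 8 of the 10 genes. The 250 bases before the start site are shown for 4 of them, namely Fos and Junb, AP-1 subunits that were lower under DRF at ZT12, Dusp1, whose profile was the only one fitted by a 24-h cosine in both regimens, and Btg2, for which no test of time of day passed. Capitals mark the core of the cAMP response element, TGACG on either strand, the full palindrome TGACGTCA that contains it, and the E-box CACGTG.
Fos, chr12:85473640-85473889, plus strand: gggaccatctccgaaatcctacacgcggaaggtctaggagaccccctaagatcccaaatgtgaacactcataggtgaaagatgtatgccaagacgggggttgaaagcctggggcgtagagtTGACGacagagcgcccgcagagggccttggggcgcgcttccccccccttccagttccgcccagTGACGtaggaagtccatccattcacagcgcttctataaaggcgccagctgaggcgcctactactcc
Junb, chr8:84978749-84978998, minus strand: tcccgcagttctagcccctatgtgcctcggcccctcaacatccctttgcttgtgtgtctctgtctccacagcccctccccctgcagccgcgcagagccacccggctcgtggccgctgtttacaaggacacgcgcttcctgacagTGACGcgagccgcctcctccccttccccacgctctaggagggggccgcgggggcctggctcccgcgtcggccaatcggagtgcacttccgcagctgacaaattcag
Dusp1, chr17:26508473-26508722, minus strand: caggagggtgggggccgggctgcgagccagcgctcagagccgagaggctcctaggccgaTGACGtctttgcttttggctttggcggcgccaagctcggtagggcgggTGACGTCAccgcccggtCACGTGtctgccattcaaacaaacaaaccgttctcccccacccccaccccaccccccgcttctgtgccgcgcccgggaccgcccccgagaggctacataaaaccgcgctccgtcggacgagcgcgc
Btg2, chr1:134079156-134079405, minus strand: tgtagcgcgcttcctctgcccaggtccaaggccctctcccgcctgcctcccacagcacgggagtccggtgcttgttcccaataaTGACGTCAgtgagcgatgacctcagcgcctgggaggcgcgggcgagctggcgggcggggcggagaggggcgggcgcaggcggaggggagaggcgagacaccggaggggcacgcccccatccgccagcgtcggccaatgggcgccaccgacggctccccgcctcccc

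The core TGACG stood in 7 of the 8 promoters, all but that of Jun, against 17.8% of the 32851 mouse promoter windows of that length in the table. This core was added to the search after the sequences had been seen. In Fos it began 66 and 129 bases before the start site, in Junb 106 bases before it and in Fosb 60 bases before it. The Fosb window (19310046 to 19310295) belongs to a start site inside the gene span given above. It therefore overlaps that span, and its TGACG lies within it. The full TGACGTCA was found in Dusp1 and in Btg2, against 1.55% of all windows, and in Dusp1 an E-box CACGTG, present in 6.02% of windows, followed it. None of the CArG box of the serum response element (1.47% of windows), the AP-1 site TGAGTCA (4.46%) and the EGR site GCGTGGGCG (0.536%) occurred in these 8 windows. These are matches of letters in a short window and say nothing on binding.

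To ask whether these genes followed a daily rhythm, a 24-h cosine was fitted in each regimen on log2(TPM + 1) with limma, and a gene was called rhythmic at an adjusted p under 0.05 (Benjamini-Hochberg, over all genes tested). Under NRF, 5 of the 9 genes were rhythmic (Fos, Junb, Ier2, Dusp1 and Klf2), beside 52.8% of all genes tested. Fos peaked at ZT5.41 ± 0.77 (SE) with an amplitude of 0.41 ± 0.09 (log2, limma adjusted p = 0.00229). Junb peaked at ZT7.58 ± 0.81 and Ier2 at ZT7.66 ± 0.77, with amplitudes of 0.28 ± 0.06 and 0.30 ± 0.06 and limma adjusted p of 0.00246 and 0.00139. Dusp1 followed at ZT10.7 ± 0.89 with the largest amplitude among the 9 genes, 0.47 ± 0.10. Klf2 ran nearly opposite to Ier2 and Junb, with a peak at ZT18.2 ± 0.90 and an amplitude of 0.27 ± 0.07. The adjusted p of Egr1 was 0.0578 with a fitted peak at ZT4.86 ± 1.23, and those of Atf3, Jun and Btg2 were at least 0.501. When all mice of 1 replicate number were left out, the call on Klf2 was lost without number 2 and without number 3 (limma adjusted p of 0.0564 and 0.0568).

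Under DRF, the single-peaked rhythm was called for 1 of the 9 genes, beside 36.7% of all genes tested. Dusp1 peaked at ZT13.6 ± 1.23 (SE) with an amplitude of 0.35 ± 0.10 (log2, limma adjusted p = 0.0276), and this call was lost when any of the 4 replicate numbers was left out (adjusted p of 0.0663 to 0.127). The 2 fitted peaks of Dusp1 differed by 2.89 ± 1.52 h. The limma adjusted p under DRF was 0.0606 for Atf3, 0.0759 for Ier2, 0.0920 for Junb, 0.0945 for Klf2, 0.152 for Fos and 0.574 for Egr1.

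Time of day nevertheless mattered under DRF when no single-peaked form was assumed. An F test over the 7 time points called 8 of the 9 genes under DRF, all but Btg2, beside 55.3% of all genes tested. Under NRF the same test called 6 genes (Fos, Junb, Ier2, Atf3, Dusp1 and Klf2), beside 54.5% of all genes tested. The smallest limma adjusted p values under DRF were those of Fos (1.31e-05), Ier2 (2.17e-05) and Junb (0.00058). When each replicate number was left out in turn, the calls on Fos, Ier2, Junb and Klf2 under DRF and on Ier2 and Klf2 under NRF were kept throughout. The count fell to 4 without number 2 and 5 without number 3 under DRF, and to 2 without number 3 under NRF.

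A 12-h component was then added to the 24-h cosine in each regimen. Under DRF it was called for 6 of the 9 genes (Fos, Jun, Junb, Egr1, Ier2 and Klf2), beside 30.8% of all genes tested. Under NRF it was called for 0 of the 9 genes with limma, with 1 at an unadjusted p under 0.05 (Klf2, adjusted p = 0.0992), beside 0.839% of all genes tested. The difference in the 12-h component between regimens was not tested. Egr1 had the largest 12-h amplitude under DRF with 0.77 ± 0.16 (SE, log2), and Fos followed with 0.53 ± 0.14. The fitted 12-h peaks of Egr1, Fos and Ier2 fell at ZT8.52 ± 0.37, ZT8.75 ± 0.45 and ZT8.97 ± 0.29, each with a twin peak 12 h later. Junb peaked at ZT6.83 ± 0.54, Jun at ZT11.1 ± 0.57 and Klf2 at ZT1.50 ± 0.55 with its twin in the first hours of the dark phase. The calls on Ier2 (limma adjusted p = 0.000245) and Egr1 (0.00235) were kept when any replicate number was left out. Those on Fos and Junb were lost without number 2 and without number 4, that on Jun without 2, 3 or 4 and that on Klf2 without 1, 2 or 3, so that 2 genes were left without number 2 and 3 without number 4.

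Fos, the AP-1 subunit that is nearly silent in unstimulated tissue, showed the double dip plainly. At ZT4 under DRF the 4 mice had 0.681, 0.919, 0.988 and 1.36 TPM. At ZT8 they had 1.36, 6.05, 4.53 and 2.78 TPM, and at ZT12 they had 0.501, 0.452, 1.43 and 0.510 TPM. Of the ZT8 mice, 3 were above every mouse of ZT4 and ZT12, whereas replicate 1 of ZT8 was level with the highest of ZT4. Under NRF the levels at ZT4 were 2.33, 2.86, 4.19 and 4.47 TPM, and at ZT12 they were 2.17, 1.41, 2.18 and 2.49 TPM. The highest mean under NRF, 3.46 ± 1.03 TPM (SD, n = 4) at ZT4, was 3.10 times the lowest, 1.12 ± 0.234 TPM at ZT16, and under DRF the ratio of ZT8 to ZT12 was 5.09.

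Egr1, an early zinc finger factor with many targets, had the same dips. Under DRF its mice had 4.59, 3.76, 5.15 and 5.86 TPM at ZT4. At ZT8 they had 4.76, 30.1, 21.7 and 17.7 TPM, and at ZT12 they had 3.97, 3.35, 6.25 and 4.28 TPM. Replicate 1 of ZT8 again stayed in the range of the neighbouring time points, and the other 3 mice were far above it. Under NRF, Egr1 had 6.12, 14.9, 23.1 and 16.1 TPM at ZT4 and 4.33, 5.52, 4.68 and 5.71 TPM at ZT16. All NRF mice of ZT4 thus lay above all NRF mice of ZT16. The time-of-day test under NRF did not call Egr1 (limma adjusted p = 0.0867), and that under DRF did (0.00133), a call lost without replicate number 2 (0.0557).

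Ier2 moved over a narrower range and with less scatter. Under DRF its levels were 18.1, 16.8, 20.2 and 21.4 TPM at ZT4, then 23.3, 35.3, 24.3 and 29.1 TPM at ZT8, and 15.4 to 21.9 TPM at ZT12. All 4 mice of ZT8 stood above all mice of ZT4 and of ZT12. The second rise under DRF had 23.7, 26.7, 30.0 and 29.9 TPM at ZT20 after 16.7, 18.1, 17.4 and 13.5 TPM at ZT16, again without overlap. Under NRF, Ier2 had means of 28.5 ± 3.79, 27.2 ± 2.04 and 26.1 ± 3.68 TPM at ZT4, ZT8 and ZT12 and 18.4 ± 2.04 TPM at ZT16, one broad daytime plateau.

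Junb, which can dampen the activity of JUN in the AP-1 dimer, had its lowest mean of all groups under DRF at ZT12, 13.2 ± 3.29 TPM (SD, n = 4). Its mice had 14.5, 11.3, 17.1 and 9.78 TPM at ZT12 under DRF and from a lowest of 20 to 26.3 TPM at ZT12 under NRF. Every DRF mouse was below every NRF mouse. At ZT4 the 2 regimens overlapped, with 23.1, 20.2, 20.8 and 27.4 TPM under DRF and 22.6, 28.3, 29.5 and 29.2 TPM under NRF. The DRF means of Jun ran from 28.4 ± 3.63 TPM at ZT16 to 43.1 ± 17.1 TPM at ZT0. Replicate 4 of DRF carried the highest Jun values of the study, 68.2 TPM at ZT0 and 60.1 TPM at ZT24, where the other 3 mice had 31.1 to 39.9 and 25.5 to 42.1 TPM. The same replicate number stands for different mice at different time points.

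Fosb was listed at 0 in 1 library and had up to 0.843 TPM. Under DRF its mean was 0.524 ± 0.266 TPM at ZT0 and 0.0778 ± 0.0691 TPM at ZT12, and all mice of ZT0 (0.312, 0.297, 0.843 and 0.644 TPM) stood above all mice of ZT12 (0, 0.0729, 0.0701 and 0.168 TPM). At ZT24, the same clock time as ZT0, the mean was 0.212 ± 0.024 TPM, so the high level of ZT0 was not repeated (log2 difference -0.31, limma unadjusted p = 0.00117 and adjusted p = 0.593 without the filter on low values). In a fit without the filter on low values, the limma adjusted p of its time-of-day variation was 0.000626 under DRF and 0.999 under NRF. These levels rest on few reads, so counting error is a large part of each value.

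Direct comparison of the regimens at each time point gave 63 tests of a gene at a time point. Of these, 11 passed, 3 higher and 8 lower under DRF, which was 17.5% beside 19% for all genes over the same 7 comparisons. The groups did not overlap in 11 of the 63 tests, beside 20.1% for all genes. The count as a whole was therefore near the background. The split was not stable: it was 1 higher and 8 lower without replicate number 1, 4 and 4 without number 2, 1 and 6 without number 3, and 5 and 5 without number 4. With median-of-ratios rescaling of the libraries the split was 5 higher and 9 lower, the 3 added calls being Fos at ZT0, Klf2 at ZT12 and Atf3 at ZT20.

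At ZT4, 4 of the 9 genes differed, beside 30.7% of all genes tested. Fos was lower under DRF by a factor of 0.285 in mean TPM (log2 difference -1.15 ± 0.26 SE, limma adjusted p = 0.000726). Egr1 was lower by a factor of 0.322 (-1.34 ± 0.39, adjusted p = 0.00696), a call lost without replicate number 2 (0.0501) or 3 (0.0849). Ier2 was lower by a factor of 0.672 (-0.55 ± 0.15, adjusted p = 0.00467) and Klf2 was higher by a factor of 1.49 (0.57 ± 0.13, adjusted p = 0.000465). In all 4 genes the groups did not overlap, beside 19.9% of all genes tested. At this time 21.2% of all genes were called lower and 9.48% higher under DRF, and the median gene differed by -0.07.

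At ZT12, 3 genes differed, beside 21.3% of all genes tested (7.99% higher and 13.3% lower), and all were lower under DRF. Junb differed by -0.80 ± 0.18 (log2, SE, limma adjusted p = 0.000665), Fos by -0.85 ± 0.26 (adjusted p = 0.0156) and Ier2 by -0.50 ± 0.15 (adjusted p = 0.0137). Junb alone did not overlap between regimens at this time (beside 23.5% of all genes). For Ier2 the NRF mice had 21.6 to 30.5 TPM and the DRF mice 15.4 to 21.9 TPM. Leaving out replicate number 2 or 4 ended the calls on Fos (adjusted p of 0.0550 and 0.118) and Ier2 (0.0514 and 0.180) but not that on Junb. Egr1, with a difference of -0.84 ± 0.39, had an adjusted p of 0.122.

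**Figure D2:**
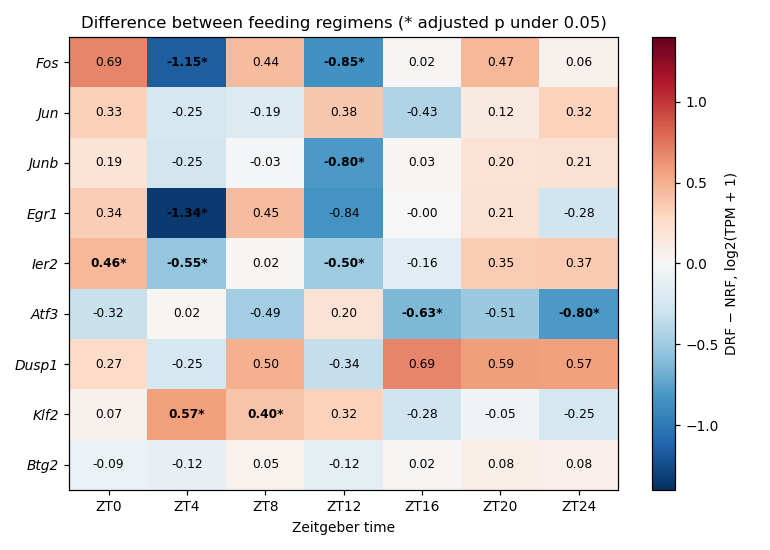
Difference between DRF and NRF in log2(TPM + 1) for the 9 genes tested (rows) at each zeitgeber time (columns), with red for higher and blue for lower under DRF and stars for a limma adjusted p under 0.05 over all genes. The starred cells of Fos, Egr1 and Ier2 at ZT4 and of Fos, Junb and Ier2 at ZT12 are negative, those of Klf2 at ZT4 and ZT8 are positive, and Btg2 lies between -0.12 and 0.08 throughout.

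Few differences were called at the other times. At ZT0, 1 of 9 genes differed (beside 20% of all genes, 8.39% higher and 11.7% lower), Ier2, which was higher under DRF by 0.46 ± 0.15 (log2, SE, limma adjusted p = 0.0241), with mice at 28.2, 19.2, 29.6 and 27.0 TPM under DRF and at 21.8, 16.2, 17.7 and 18.1 TPM under NRF. The groups overlapped in 1 DRF mouse, and the call was lost without replicate number 1, 3 or 4. Fos at ZT0 did not overlap between regimens, with 2.30 to 6.47 TPM under DRF and 1.49 to 1.82 TPM under NRF, and its adjusted p was 0.0573, where 21% of all genes did not overlap. At ZT8, 1 gene differed (beside 17% of all genes, 8.05% higher and 8.93% lower), Klf2, which was higher by 0.40 ± 0.13 (adjusted p = 0.0228, lost without number 1 or 3), with 36.1 to 47.5 TPM under DRF and 30.4 to 35.3 TPM under NRF and no overlap (beside 21.9% of genes). At ZT20, 0 of 9 genes passed with limma (beside 19%, 10.7% higher and 8.33% lower), and 3 had an unadjusted p under 0.05.

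Klf2 had a profile of its own. At ZT4 its mice had 51.4, 40, 52.0 and 53.0 TPM under DRF and 26.1, 29.6, 36.0 and 39.9 TPM under NRF. Every DRF mouse lay above every NRF mouse, although the lowest DRF value and the highest NRF value nearly touched. Under NRF the lowest mean, 32.0 ± 2.21 TPM at ZT8, was followed by the highest, 52.3 ± 5.46 TPM at ZT16. Under DRF the lowest was 37.3 ± 4.30 TPM at ZT20 and the highest 54.8 ± 3.78 TPM at ZT12. Endothelial markers (8 genes, summed) had 311 ± 49.8 TPM at ZT4 and 232 ± 44.5 TPM at ZT8 under NRF, and 298 ± 52.6 and 296 ± 16.2 TPM under DRF. Their part in the Klf2 difference at ZT8 was not tested, and at ZT4 the 2 regimens had overlapping sums, 263 to 366 TPM under NRF and 253 to 371 TPM under DRF.

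Atf3, the stress-induced member of the ATF/CREB family, was lower under DRF at ZT16 and ZT24. At ZT24 its mice had 1.4 to 2.55 TPM under DRF and 3 to 6.15 TPM under NRF, which did not overlap (beside 22% of all genes). The log2 difference was -0.80 ± 0.19 (SE, limma adjusted p = 0.00255), and Atf3 was the only one of the 9 genes called at ZT24 (beside 16% of all genes, 7.48% higher and 8.5% lower). At ZT16 it was again the 1 gene called (beside 8.75%, 2.46% higher and 6.29% lower), with 2.86, 2.87, 1.85 and 3.10 TPM under DRF and 4.34, 5.22, 3.55 and 5.67 TPM under NRF (-0.63 ± 0.19, adjusted p = 0.0288), a call lost without replicate number 2, 3 or 4 and without the libraries with adipose markers described below (0.152). The groups of Atf3 and Klf2 did not overlap at ZT16, beside 12.6% of genes. At ZT20 the regimens did not overlap for Atf3 either (1.25 to 2.42 against 2.89 to 3.63 TPM, beside 19.9%), with a difference of -0.51 and an adjusted p of 0.0524. The difference was -0.49 at ZT8 (adjusted p = 0.0736) and -0.32 at ZT0, the same clock time as ZT24, where the regimens overlapped (adjusted p = 0.257).

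The mean over clock time (mesor) differed between regimens for 2 of the 9 genes, beside 12.4% of all genes tested (2.98% higher and 9.44% lower). Atf3 was lower under DRF (log2 difference -0.33 ± 0.07 SE, limma adjusted p = 0.00209). Klf2 was higher by 0.15 ± 0.05 (adjusted p = 0.0418), a call lost without replicate number 1 (0.528) or 3 (0.0946) and without the libraries with adipose markers (0.0914). The mesor difference of Dusp1 was 0.27 ± 0.10 (adjusted p = 0.0846), and those of Fos, Jun, Junb, Egr1, Ier2 and Btg2 had adjusted p values of at least 0.298.

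The interaction of regimen with the 24-h cosine tested whether the rhythm itself differed. It was called for 3 of the 9 genes, beside 46.4% of all genes tested. These were Klf2 (limma adjusted p = 0.00194), Ier2 (0.00519) and Junb (0.0199). The fitted 24-h peak moved from ZT18.2 ± 0.90 to ZT8.78 ± 1.43 for Klf2, from ZT7.66 ± 0.77 to ZT1.11 ± 1.53 for Ier2 and from ZT7.58 ± 0.81 to ZT1.76 ± 1.55 for Junb, although none of the 3 was rhythmic under DRF by itself. The call on Junb was lost when any replicate number was left out (adjusted p of 0.0531 to 0.0769) and without the libraries with adipose markers (0.0702). Fos, with fitted peaks at ZT5.41 ± 0.77 and ZT0.64 ± 1.85, had an adjusted p of 0.120, and Egr1 of 0.565.

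The first and last time points share a clock time. Limma called 0 of the 9 genes between them under NRF (beside 0.621% of all genes, 0.282% higher and 0.339% lower) and 0 under DRF (beside 0%), with 0 and 1 genes at an unadjusted p under 0.05. The latter was Atf3, with a difference of -0.51 ± 0.19 (log2, SE).

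Dusp1, the feedback phosphatase, had its highest mean at ZT12 under NRF and at ZT16 under DRF. Under NRF its mice had 51.3, 92.6, 71.2 and 57.5 TPM at ZT12 and 22.2, 24.6, 32.8 and 37.7 TPM at ZT20, which did not overlap. Under DRF they had 60.3, 70.2, 66.6 and 68.7 TPM at ZT16 and 30.7, 21.7, 30.4 and 51.9 TPM at ZT4, again without overlap. At ZT12 under DRF they had 41.4 to 58.5 TPM, all below the mice of ZT16, and the difference from NRF at ZT12 was -0.34 ± 0.27 (log2, SE, limma adjusted p = 0.405). No time point separated the regimens for Dusp1 in the test, and the smallest adjusted p was 0.0994 at ZT16, where the NRF mice ranged from 24.1 to 71.9 TPM. Btg2 showed no time of day at all in either regimen (limma adjusted p of 0.867 under NRF and 0.965 under DRF), with group means of 34.1 to 41.0 TPM, and its mice ranged from 27.7 to 56.1 TPM.

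Immune cell markers (7 genes, summed) were also low under DRF at ZT4 and ZT12. Their sums were 139 ± 20.6 and 134 ± 15.4 TPM there (SD, n = 4), against 180 ± 15.2 TPM at ZT8 under DRF, and 188 ± 23.8 and 165 ± 16.6 TPM at ZT4 and ZT12 under NRF. The range was 112 to 157 TPM at ZT4 and 117 to 148 TPM at ZT12 under DRF, and their part in the low levels of Fos, Egr1, Junb and Ier2 was not tested. The blood marker Alas2, the only one of 4 listed with recovered reads, had 14.2 ± 4.63 TPM at ZT4, 33.5 ± 6.88 TPM at ZT8 and 20.1 ± 5.82 TPM at ZT12 under DRF. Under NRF it had 25.8 ± 10.8 TPM at ZT4, and its 18.6 to 41.8 TPM there did not overlap the 7.30 to 17.0 TPM under DRF. Collecting duct markers (4 genes, summed) had their highest group mean at ZT8 under DRF, 1690 ± 121 TPM (1560 to 1814 TPM), against 988 ± 330 TPM (816 to 1484 TPM) under NRF. The part of either in the levels of Fos and Egr1 was not tested. Adipose markers (4 genes, summed) were over 500 TPM in 7 libraries, 6 of NRF and 1 of DRF, up to 3505 TPM, against a median of 56.7 TPM. Without those 7 libraries, 10 of the 11 differences at single time points were left as a count, 5 and 1 genes were rhythmic under NRF and DRF, and 6 had a 12-h component under DRF. The time-of-day test then called 4 genes under NRF, where Fos and Atf3 were lost, and 8 under DRF. Markers of proximal tubule (3406 to 6875 TPM) and thick ascending limb (4054 to 10464 TPM) were high in every library. Of the adrenal markers, Cyp11a1 was under 1 TPM in all libraries. Its sum with Star, the other adrenal marker recovered, ranged from 4.24 to 7.73 TPM. Sums ranged from 340 to 636 TPM for the distal convoluted tubule, 523 to 1998 TPM for the collecting duct over all libraries, 267 to 555 TPM for podocytes, 77.6 to 241 TPM for fibroblasts, 50.7 to 367 TPM for smooth muscle, 139 to 649 TPM for liver genes and 65.0 to 149 TPM for pancreas genes. Across genes, which do not count as replicates, 84 pairs of libraries within a group had a median r of 0.989, and the least alike pair had 0.968.

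How much did mice of the same group differ? The pooled within-group SD of log2(TPM + 1) had a median of 0.25 over the 10 genes and of 0.14 over all genes tested. Egr1 had the largest SD with 0.57, higher than 97.8% of all genes tested. Dusp1 had 0.39 and Fos 0.38, higher than 94.7% and 94.2% of genes. Atf3 had 0.28, Junb 0.26, Jun 0.25, Btg2 0.25, Ier2 0.22 and Klf2 0.18, which lay above 69.0% to 87.3% of genes. Fosb, whose values are compressed by the pseudocount of 1 TPM, had 0.13.

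Part of this spread is the sampling of reads. For Dusp1 the variance between mice was 56.9 times the counting variance, for Egr1 45.9 times, for Jun 23.4 times and for Btg2 20.3 times, beside a median of 6.30 times over all genes tested. The ratio was 5.65 for Ier2, 5.08 for Fos, 2.94 for Atf3 and 2.35 for Fosb, all under that median, and 10.7 for Junb and 8.71 for Klf2. Counting variance is larger where reads are few, which lowers the ratio. The SD expected from counting alone was 0.17 for Fos and 0.16 for Atf3 beside total SDs of 0.38 and 0.28. Counting variance here is the Poisson error of the recovered reads, and PCR duplicates were not marked in the table.

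**Figure D3:**
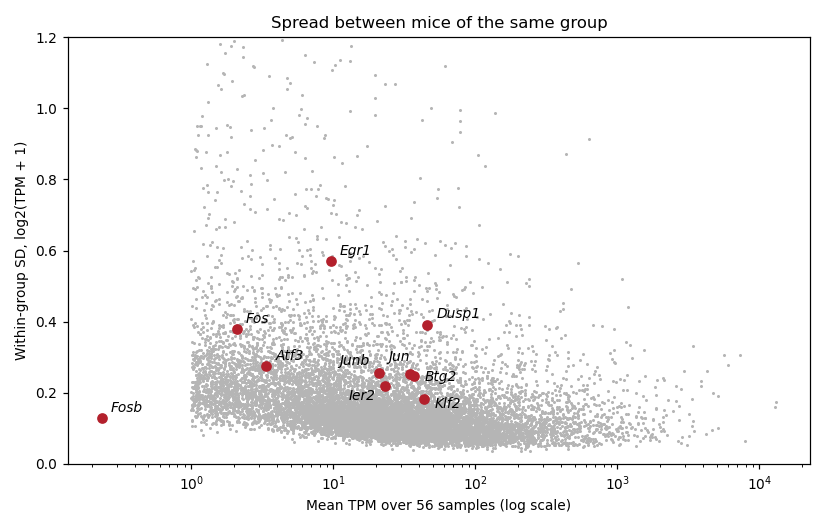
Pooled within-group SD of log2(TPM + 1) (y axis) against mean TPM over 56 samples (x axis, log scale), with grey points for the other genes tested and red points for the 10 immediate early genes. Egr1 at 0.57, Dusp1 at 0.39 and Fos at 0.38 are the 3 highest of the 10, and 51 grey points lie above the top of the axis at 1.2.

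Among the 9 genes tested, the ratio of highest to lowest mouse was largest for Egr1 at ZT8 under DRF, 6.31, and in the median group it was 2.21 for Egr1. Fosb had a median ratio of 2.84 on few reads, with no ratio at ZT12 under DRF, where 1 mouse was at 0. For Fos the widest group was also DRF at ZT8, with 4.44 times. The median ratio of highest to lowest was 2.11 for Fos, 1.80 for Dusp1, 1.71 for Atf3 and 1.31 to 1.43 for Jun, Junb, Ier2, Klf2 and Btg2. In the 3 groups with the lowest Egr1 means the ratio was 1.86 (DRF at ZT12), 1.56 (DRF at ZT4) and 1.32 (NRF at ZT16).

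Time and regimen together explained an unequal part of the variance. After adjustment for the number of groups, the 14 groups accounted for 55.2% of the variance of Ier2, 55% of Klf2, 50.6% of Fos, 48.8% of Atf3, 43.8% of Junb and 42.6% of Dusp1, beside a median of 35.4% over all genes tested. Egr1 was at that median with 35.7%, and Jun was lower with 16%. For Btg2 the adjusted share was -19.5%, which means that its group means differed by less than its spread between mice would give, and only 0.113% of genes had a lower share.

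To ask whether a mouse that was high for one of these genes was high for others, the deviations from the group means were correlated over the 56 mice for all 45 pairs, with permutation of mice within groups (100000 permutations, two-sided). All 45 Pearson correlations were above 0, with a median of 0.36. After Benjamini-Hochberg adjustment over the 45 pairs, 28 pairs passed by Pearson's r and 27 of these also by Spearman's rho. The share of other gene pairs passing this test was not computed, so the count of 28 stands without a background. Closest were Fos and Egr1 with r = 0.80 and rho = 0.77 (permutation p = 1e-05 for each, the smallest they can give, and adjusted p of 0.0003 and 0.00045). Without the 2 mice farthest from the median of Fos, r was 0.76, and r was 0.75 within NRF and 0.86 within DRF.

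Junb and Ier2 had r = 0.64 and rho = 0.65 (permutation p of 2e-05 and 3e-05, adjusted p of 0.0003 and 0.00045), and r was 0.68 without the 2 farthest mice. Egr1 and Ier2 had r = 0.64 and rho = 0.64 (permutation p = 2e-05 for each, adjusted p of 0.0003 and 0.00045), with 0.62 without those mice. Fos and Fosb, relatives in sequence and partners of JUN proteins, had r = 0.49 and rho = 0.51 (permutation p of 0.00013 and 0.00021, adjusted p of 0.00146 and 0.00157). Jun and Junb were the least related pair with r = 0.10 and rho = 0.14 (permutation p of 0.586 and 0.379, adjusted p of 0.586 and 0.388), and r was 0.22 without the 2 farthest mice.

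**Figure D4:**
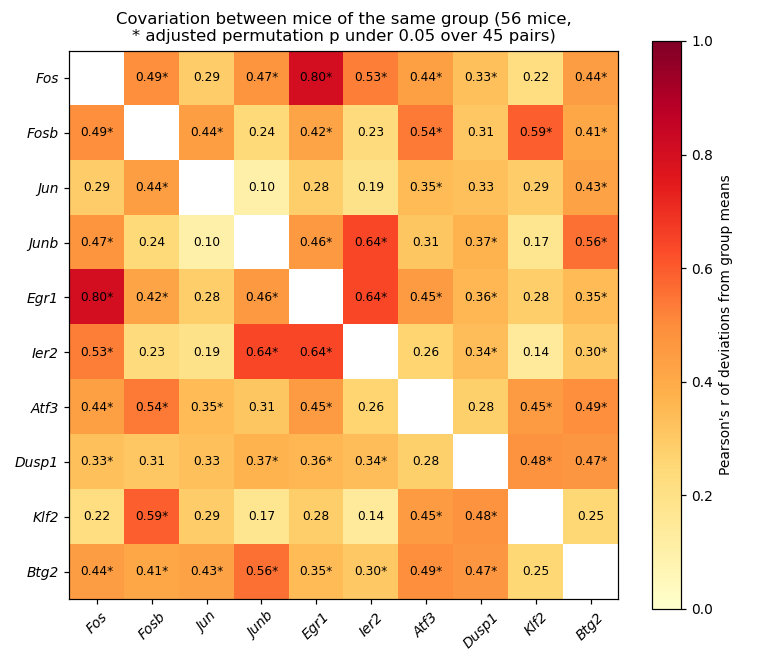
Pearson's r between the deviations of 2 genes from their group means over 56 mice, for the 45 pairs of the 10 immediate early genes, with darker red for a higher r and stars for an adjusted permutation p under 0.05. The darkest cell is Fos with Egr1 at 0.80, every cell is above 0, and 28 pairs are starred.

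These correlations have to be read against those with any gene. The median r of Fos with all genes tested was 0.07 and that of Egr1 0.03, and only 0.0807% and 0.266% of genes had an r above 0.5 with them. The median with all genes tested was 0.05 for Ier2, 0.10 for Klf2, 0.12 for Jun and 0.14 for Atf3 and Fosb. It was higher for Dusp1 (0.18), Junb (0.20) and Btg2 (0.30). Junb, Dusp1 and Btg2 had an r above 0.5 with 10.2%, 7.29% and 28.6% of all genes tested, so a correlation with Btg2 was shared by a large part of the transcriptome. The number of starred pairs fell to 15 without replicate number 2 and to 16 without number 3. It was 21 with median-of-ratios rescaling of the libraries and 20 without the 7 libraries with adipose markers.

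**Figure D5:**
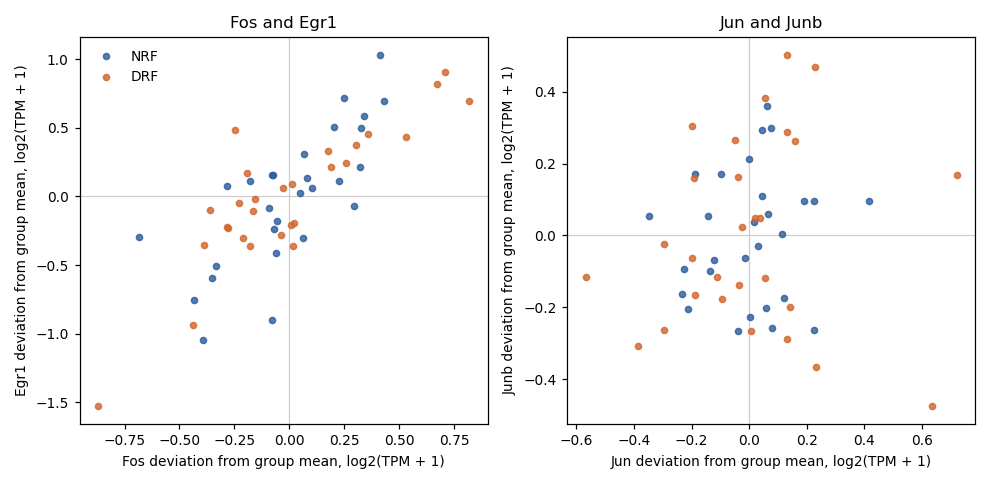
Deviations from the group mean in log2(TPM + 1) of single mice (points, NRF in blue and DRF in orange), with Fos against Egr1 on the left and Jun against Junb on the right. The points of Fos and Egr1 run along a rising diagonal with r = 0.80, and those of Jun and Junb show no clear slope, with r = 0.10.

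Some mice stood at the edge of their group for most of the genes. Replicate 2 of DRF at ZT4 was the lowest of its 4 mice for 9 of the 10 genes, replicate 2 of DRF at ZT20 for 8 and replicate 2 of NRF at ZT12 for 8. At the other end, replicate 4 of DRF at ZT4 was the highest for 8 of the 10 genes. Replicate 1 of DRF at ZT8, the mouse without the Fos and Egr1 rise, was the lowest for 7 and lay above the group mean for 1 gene. Its mean deviation over the 10 genes was -0.37 (log2), the lowest of the 56 mice, and its 22.1 M recovered reads lay within the range of 21.6 to 24.3 M.

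Beyond the 10 genes, 34 other immediate early genes were listed, of which 28 were tested. The time-of-day test called 17 of them under NRF and 22 under DRF, beside the 54.5% and 55.3% of all genes. The 24-h cosine called 16 under NRF and 12 under DRF, beside 52.8% and 36.7% of all genes. The 12-h component called 0 under NRF and 14 under DRF, beside 0.839% and 30.8%, and the differential rhythm called 16, beside 46.4%. Per1, the clock gene that also responds acutely to stimuli, went from 8.09 ± 1.70 TPM at ZT24 to 77.8 ± 4.4 TPM at ZT12 under NRF (limma adjusted p = 3.39e-12) and from 13.5 ± 3.29 TPM at ZT4 to 57.6 ± 7.52 TPM at ZT12 under DRF (1.25e-07). Dusp6, a phosphatase that acts on ERK, peaked at ZT4 under NRF (64.9 ± 6.59 TPM), and under DRF went from 37.0 ± 2.49 TPM at ZT4 to 74.9 ± 8.02 TPM at ZT20. Myc peaked at ZT4 under NRF (14.4 ± 2.29 TPM), and under DRF went from 8.31 ± 1.64 TPM at ZT12 to 20.6 ± 3.13 TPM at ZT20, and both differed in rhythm between regimens (adjusted p of 3.53e-05 and 2.15e-05).

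At ZT4, 10 of the 28 other genes were called, 7 of them lower under DRF, beside 30.7% of all genes called and 21.2% lower. At ZT12, 3 were called, 1 of them lower, beside 21.3% and 13.3%. At the other times most calls were higher under DRF or evenly split. At ZT0 all 6 called were higher, beside 20% of all genes called and 8.39% higher. At ZT20 all 5 were higher, beside 19% and 10.7%, and at ZT24 6 of 7, beside 16% and 7.48%. At ZT8, 2 of the 3 called were higher, beside 17% and 8.05%, and at ZT16 3 of 6, beside 8.75% and 2.46%. Ier5 and Zfp36, which encodes an RNA-destabilizing protein, complete the 5 with the smallest time-of-day adjusted p. Ier5 had its highest mean at ZT24 under NRF, 25.8 ± 1.07 TPM, and Zfp36 at ZT8, 65.4 ± 23.7 TPM.

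The genes outside the list whose values over the 56 samples were most like the mean standardized value of the 9 genes were Prkch (Pearson's r = 0.71), Gba2 (0.69), Rbms1 (0.67), Syf2 (0.67) and Cntrl (0.67). For deviations from the group means, the closest were Nfkbia (0.78), an early response gene that encodes an inhibitor of NF-κB, Ly6c1 (0.77), Ptma (0.73), Ntf3 (0.73) and Zfp9 (0.72). These values are a description of likeness in shared libraries, with no test.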

How the data were processed

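Kidney RNA of 56 mice was measured in 14 groups of 4. The submitters' processing notes name HISAT2, Bowtie2 and RSEM with the builds mm10 and GRCm38.p6, without roles. The deposited values, called TPM by the authors, were a score: log2(CPM + 1) divided by gene length and scaled to a like sum in each sample. From the steps of that score, whole reads were recovered with GENCODE M21 exon lengths (within 0.05 reads in 98.3% of values, 90.8% of genes, and every value of the 10 genes), giving 21.6 to 24.3 M reads per library, and TPM was rebuilt. TPM was scaled over the recovered genes only, whose reads made up 79.7% to 92.7% of the library size implied by the score. Of the genes left out, 66 were too high to judge. The effect of this uneven share on levels was not tested. With median-of-ratios rescaling, the median within-group SD of the 10 genes was 0.24. Fold changes are on log2(TPM + 1), which understates those of low genes. Testing covered genes whose mean reached 1 TPM, with limma 3.58.1 (R 4.3.3, trend, adjusted p under 0.05), and permutations were run in Python 3.11.15. One NRF ZT24 column could be matched to its group but not to a number. On simulated data for 12390 genes, effects of 0.5 (log2) were recovered in 95% of genes for the NRF rhythm and 91% for the differential rhythm. Recovery was 73% for DRF minus NRF at ZT4, and no DRF rhythm was simulated. The changed genes were drawn from all genes tested, whose median within-group SD was 0.14, beside 0.25 for the 10 genes. Recovery for genes with so wide a spread was not given separately and may be lower. The named genes were the 10 genes, the 5 most alike on each scale and, of the other immediate early and upstream lists, the 5 and 3 with the smallest time-of-day adjusted p, and genes outside this rule are named where a count is small. Both lists, the marker lists and the 10 genes were chosen with earlier results of these data known. Alternatives changed the pseudocount, filter, scaling, time points, libraries and replicate block. Mice were group housed with no cage given. Limma p-values set each effect against the spread between these mice, moderated by a trend over all genes.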

Additional observations from a re-analysis of the deposited data

Results flagged for a closer look

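In 7 of 140 groups (10 genes in 14 groups of 4 mice), 1 mouse stood far from the other 3 by Dixon's criterion, which chance gives in about 1 in 20 groups. For Fos these were 1.47 TPM in replicate 2 of NRF at ZT16 (next 1.02 TPM), 6.47 TPM in replicate 3 of DRF at ZT0 (next 2.74 TPM) and 1.43 TPM in replicate 3 of DRF at ZT12 (next 0.510 TPM). For Fosb it was 0.271 TPM in replicate 1 of DRF at ZT16 (next 0.0966 TPM), and for Btg2 it was 47.8 TPM in replicate 4 of DRF at ZT4 (next 33.0 TPM). On the low side stood Junb with 22.6 TPM in replicate 1 of NRF at ZT4 (next 28.3 TPM) and Klf2 with 40.0 TPM in replicate 2 of DRF at ZT4 (next 51.4 TPM).

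The 24-h rhythm differed between DRF and NRF by the interaction test for Klf2 (limma adjusted p = 0.00194), Ier2 (0.00519) and Junb (0.0199).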

How the results depend on the processing

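Of 42 called results of single genes, 20 were kept under every alternative in which the gene was tested, and the 13 called results with a sign kept it in all 151 recomputations. Counts moved as follows. The 24-h rhythm under DRF had 2 genes without the low-value filter, with median-of-ratios rescaling, with the deposited values taken as TPM and with the replicate block, and 0 with any replicate number left out. Leaving out each number in turn gave 2 to 5 genes for the 12-h component, 2 to 7 and 4 to 8 for time-of-day variation under NRF and DRF, 7 to 10 for single time points, 1 to 3 for the mesor and 15 to 22 covarying pairs. At a mean TPM of at least 5, where Fos and Atf3 are not tested, single time points gave 7 and the mesor 1, and without the 7 libraries with adipose markers (an alternative chosen after seeing the data) the mesor gave 1. Linear TPM was planned for the 24-h tests and leaving out ZT24 for the cosine fits. At single time points, added after seeing the data, linear TPM gave 11 calls (4 higher and 7 lower) and leaving out ZT24 gave 11 (3 and 8) without a ZT24 comparison, Atf3 at ZT20 being added. The replicate block, which drops the NRF ZT24 library with no number, gave 17 calls at single time points (6 higher and 11 lower) and 17 covarying pairs. Replicate numbers were not treated as pairs, since same-numbered mice of the regimens correlated from -0.45 to 0.70 (median 0.07) and 13 of 27 pairs were over 0.1. Leaving out the NRF ZT24 library with no number, also chosen after seeing the data, gave 12 calls at single time points. The cause of these moves was not tested, apart from the fewer mice or genes. Depth limits Fosb, Fos and Atf3 most.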

Other observations

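Of 25 regulators upstream of immediate early genes, 24 were tested, and the time-of-day test called 9 under NRF and 14 under DRF, beside 54.5% and 55.3% of all genes. Mapk14, which encodes the p38 MAP kinase, had its highest mean at ZT16 in both regimens, with NRF at 164 ± 4.12 TPM and DRF at 154 ± 6.60 TPM (SD, n = 4), and its lowest at ZT4 under NRF (104 ± 8.54 TPM) and at ZT20 under DRF (89.5 ± 5.27 TPM). Elk3, a partner of the serum response factor, had its highest mean at ZT4 and its lowest at ZT12 in both regimens, 29.9 ± 2.40 and 19.0 ± 2.40 TPM under NRF and 27.5 ± 3.19 and 19.6 ± 3.04 TPM under DRF. Creb1, the factor that binds the cAMP response element, was highest at ZT16 and lowest at ZT4 under NRF (18.6 ± 2.96 and 12.1 ± 1.49 TPM) and highest at ZT4 and lowest at ZT8 under DRF (16.1 ± 2.47 and 11.9 ± 0.617 TPM). The differential rhythm was called for Mapk14 and Creb1 (limma adjusted p of 0.000248 and 0.00332), with an adjusted p of 0.0652 for Elk3. At ZT4, 5 of the 24 regulators were called, 2 higher and 3 lower under DRF, beside 30.7% of all genes tested (9.48% higher and 21.2% lower).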
